A study of Mus musculus with 12 samples.

Results

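The Krüppel-like factors described here are the 10 genes *Klf2*, *Klf4*, *Klf6*, *Klf7*, *Klf9*, *Klf10*, *Klf11*, *Klf13*, *Klf15* and *Klf16*. They were found by their symbols among the 23183 genes listed for each library, and all 10 were present in every library. Male C57BL/6 mice received either sham treatment without radiation (Con) or a single X-ray dose of 10 Gy to the whole brain (IR), and RNA of their cortex and hippocampus was sequenced 3 months later. The mice were bought at 7 weeks of age and acclimatized for 1 week, carried no transgene, and differed by group, as far as the labels tell, in the irradiation alone. Each of the 4 groups had 3 libraries, 12 in all. The labels number the libraries but do not tie them to single mice, so the p values measure the spread between libraries. The study divided its mice into groups of 10 and reported behavioral tests on 10 mice per group at about the time of sampling. Sequenced mice drawn from these groups were therefore among those tested, although the study does not name the mice sequenced.

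Krüppel-like factors are transcription factors that bind GC-rich and CACCC-type DNA through C-terminal zinc fingers, and they activate or repress their targets depending on the cofactors bound by the N-terminal part. *Klf9* and *Klf15* are known as genes induced by glucocorticoids, and *Klf9* also responds to thyroid hormone. *Klf2* and *Klf4* are known from endothelial cells, where shear stress acting through MEK5, ERK5 and MEF2 induces them, and *Klf4* is known as a pluripotency factor as well. *Klf10* and *Klf11* were first described as early genes of TGF-beta signalling and recruit the SIN3A corepressor, as *Klf9*, *Klf13* and *Klf16* do.

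The promoters of the 4 genes that *Klf10* was set against are shown because the family recognizes sites of the kind found in its own promoters. Each line gives the 250 bases before the RefSeq start on GRCm38.p6, 5′ to 3′ on the strand of the gene. Capitals mark every match, on either strand, to 4 motifs, and neighboring matches can run together. The GC box was searched as GGGCGG. The CACCC box was searched by the letters of its name. The E-box was searched as CACGTG. The MEF2 site was searched too. The windows are chr8:72318812-72319061 on the plus strand for *Klf2*, chr4:55532476-55532725 on the minus strand for *Klf4*, chr19:23140976-23141225 on the plus strand for *Klf9*, and chr6:90462326-90462575 on the plus strand for *Klf15*.
Klf2: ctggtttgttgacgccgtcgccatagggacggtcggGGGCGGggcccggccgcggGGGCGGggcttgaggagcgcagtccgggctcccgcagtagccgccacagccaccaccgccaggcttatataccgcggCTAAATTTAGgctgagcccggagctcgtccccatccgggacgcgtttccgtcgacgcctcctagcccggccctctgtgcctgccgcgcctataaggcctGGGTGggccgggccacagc
Klf4: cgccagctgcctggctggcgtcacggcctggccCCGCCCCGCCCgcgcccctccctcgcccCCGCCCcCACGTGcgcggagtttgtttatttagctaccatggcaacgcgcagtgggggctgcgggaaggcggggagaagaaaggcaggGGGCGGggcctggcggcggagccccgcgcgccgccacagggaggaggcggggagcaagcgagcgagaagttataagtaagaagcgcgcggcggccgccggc
Klf9: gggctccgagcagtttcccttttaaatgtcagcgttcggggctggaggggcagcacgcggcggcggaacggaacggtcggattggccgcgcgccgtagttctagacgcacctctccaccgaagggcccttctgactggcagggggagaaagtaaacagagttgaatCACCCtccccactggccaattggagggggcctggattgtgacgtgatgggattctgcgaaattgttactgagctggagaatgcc
Klf15: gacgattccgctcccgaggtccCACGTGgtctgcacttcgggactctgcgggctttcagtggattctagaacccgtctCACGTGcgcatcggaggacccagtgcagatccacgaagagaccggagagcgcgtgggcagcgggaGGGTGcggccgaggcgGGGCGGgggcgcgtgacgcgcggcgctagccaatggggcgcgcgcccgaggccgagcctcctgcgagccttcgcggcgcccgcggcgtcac

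The endothelial pair held several GC boxes, 2 in *Klf2* and 4 in *Klf4*, whereas the hormone-responsive pair held none in *Klf9* and 1 in *Klf15*. The MEF2 site of *Klf2* began 118 bases before the start, and 2.92% of the 32851 RefSeq promoters held such a site. The 2 E-boxes of *Klf15* began 228 and 172 bases before the start, and the E-box of *Klf4* 182 bases before it, against 6.02% of promoters with an E-box. Promoter windows were found for 8 of the 10 members. A GC box was present in 7 of these 8, against 32.7% of all promoters, and a CACCC box in 5 of 8, against 52.0%. An E-box was present in 4 of 8 and a CCAAT box (CCAAT) in 5 of 8, against 33.9% of all promoters for the CCAAT box. No match to the cAMP response element TGACGTCA, to the CArG box or to the palindromic glucocorticoid response element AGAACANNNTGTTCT was found in the 8 windows. These motifs are rare, in 1.55%, 1.47% and 0.009% of all promoters in that order, and their absence from 8 windows says nothing of the factors that bind them. The 4 printed windows were 59.6% (*Klf9*) to 74.0% (*Klf4*) G or C, and the median of all promoters was 52.4%.

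In the GENCODE M21 annotation on GRCm38, the members lie on 10 different chromosomes. *Klf10* spans chr15:38291463-38300706 on the minus strand and *Klf9* spans chr19:23141226-23168134 on the plus strand. *Klf7* shares 3196 exonic bases, 39.3% of its exons, with the noncoding gene *Gm26649* on the other strand. Since the strand setting of the counting is not given in the sources used here, the level of *Klf7* is uncertain.

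The values are FPKM (sequenced fragments divided by transcript length and by the size of the library), so that levels may be set against each other between genes. FPKM summed to 359773 to 393447 per library, and no pair of libraries was identical. No read counts were used, so the depth in reads is unknown and no counting error is given. Summed FPKM of 5 hippocampus markers lay at 4.67 to 8.50 in cortex and at 103 to 133 in hippocampus libraries, and that of 5 cortex markers at 71.5 to 76.3 and 21.9 to 28.97. Choroid plexus markers stood far above the other libraries in cortex IR 2 (439.8 FPKM summed over 6 genes), hippocampus Con 2 (1064 FPKM) and hippocampus IR 1 (1655 FPKM), against 4.53 to 66.5 FPKM in the other 9 libraries.

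In the Con cortex the members covered a wide range of levels. *Klf9* was the highest at 51.5 ± 2.32 FPKM (SD, n = 3, as for all group values here). It was followed by *Klf13* at 32.0 ± 2.26 FPKM, a factor known from lymphocytes and the heart, and by the repressor *Klf16* at 21.9 ± 1.01 FPKM. *Klf6*, an injury-response gene, followed at 14.6 ± 1.07 FPKM. The ranges of *Klf15* (10.2 ± 0.821 FPKM), *Klf10* (9.13 ± 1.98 FPKM) and *Klf7* (8.39 ± 0.370 FPKM) overlapped between neighbors, so their order is not settled. *Klf2* at 5.31 ± 0.433, *Klf11* at 2.83 ± 0.243 and *Klf4* at 1.77 ± 0.126 FPKM were lowest, without overlap between neighbors. Over the 12 libraries, the mean of *Klf9* was above 92.8% of the genes listed above 0 in at least 1 library, and that of *Klf11* above 40.9%.

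The Con hippocampus had the same 3 genes at the top, but *Klf6* sat lower. *Klf9* was at 55.9 ± 2.52, *Klf13* at 46.3 ± 3.78 and *Klf16* at 27.2 ± 2.26 FPKM. *Klf15*, *Klf10*, *Klf7* and *Klf6* formed a middle group of 8.96 ± 0.391, 8.05 ± 1.89, 7.90 ± 0.0954 and 7.64 ± 0.516 FPKM, in which each neighboring pair overlapped. *Klf2* (4.55 ± 0.802 FPKM) was below them, and *Klf11* (2.03 ± 0.324 FPKM) and *Klf4* (1.64 ± 0.306 FPKM) overlapped at the bottom.

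**Figure D1:**
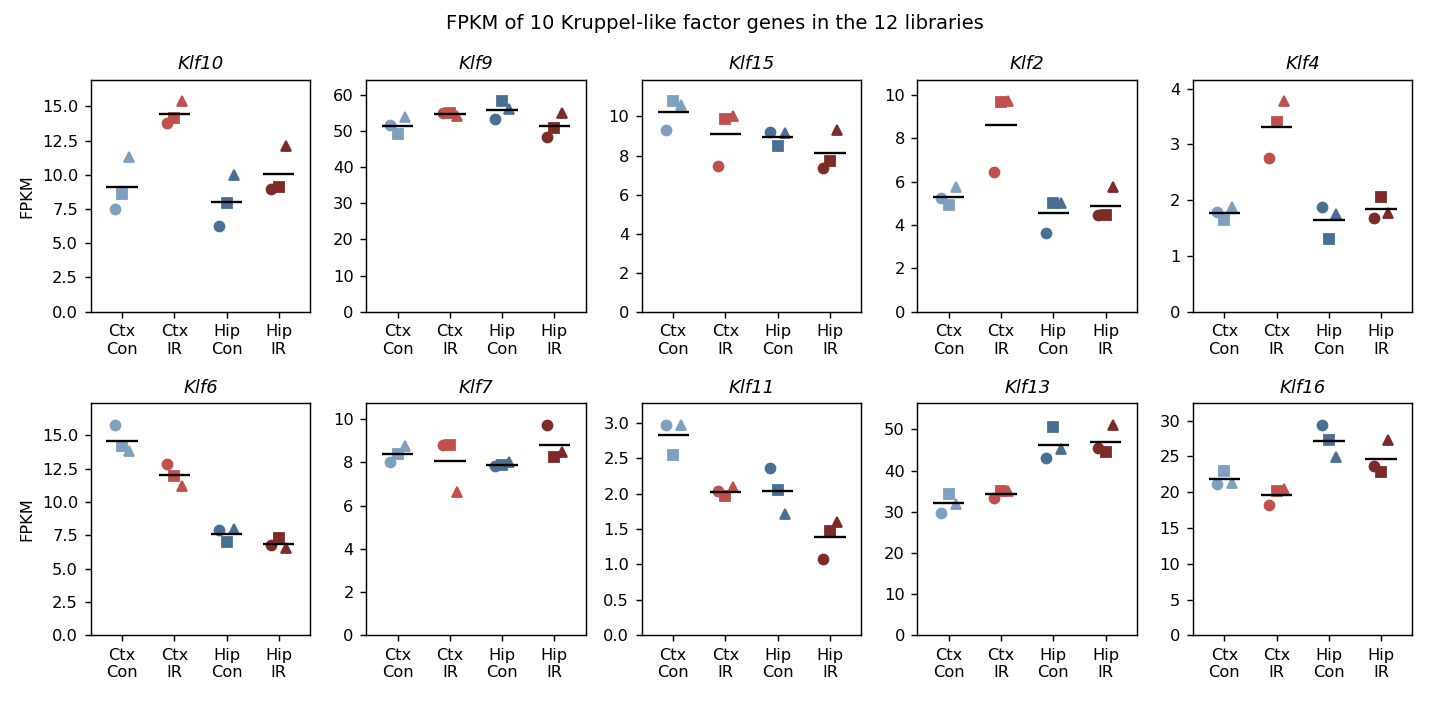
FPKM (vertical axes, from 0, each gene with its own scale) of the 10 Krüppel-like factor genes in cortex (Ctx) and hippocampus (Hip), Con and IR. Circles, squares and triangles are libraries 1, 2 and 3 of a group and the bars are group means. In the cortex all 3 IR libraries lie above all 3 Con libraries for *Klf10*, *Klf2*, *Klf4* and *Klf9*, and below them for *Klf6*, *Klf11* and *Klf16*.

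The first comparison set the hippocampus against the cortex in Con. *Klf6* differed the most. It was 15.8, 14.2 and 13.8 FPKM in the cortex libraries and 7.88, 7.04 and 7.99 FPKM in the hippocampus libraries. The groups were far apart, with a hippocampus to cortex ratio of 0.523 and a log2 fold change of -0.85 ± 0.09 (SE; adjusted p = 5.62e-05 from limma over all genes). All log2 fold changes here are differences on the log2(FPKM + 1) scale, which understates the change of low genes.

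*Klf13* and *Klf16* were higher in the hippocampus. The cortex libraries held *Klf13* at 29.8, 34.3 and 31.9 FPKM and the hippocampus libraries at 43.1, 50.5 and 45.3 FPKM, a ratio of 1.45 without overlap (log2 fold change 0.52 ± 0.09, adjusted p = 0.00139 from limma). *Klf16* was 1.25 times as high in the hippocampus (log2 fold change 0.30 ± 0.08, adjusted p = 0.0179 from limma). *Klf11* was lower there, with a ratio of 0.719 (log2 fold change -0.34 ± 0.11, adjusted p = 0.0395 from limma). The calls of *Klf11* and *Klf16* were each lost on leaving out 4 of the 6 libraries in turn, with adjusted p from limma of up to 0.124 for *Klf11* (without cortex Con 1) and 0.0721 for *Klf16* (without cortex Con 1). Those of *Klf6* and *Klf13* held in every case.

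Thus 4 of the 10 members passed an adjusted p under 0.05, against 36.3% of the 14169 genes tested, and 6 of 10 did not overlap between the regions, against 49.8%. Regional difference was therefore about as common among the members as among all genes. *Klf7* (ratio 0.941) and *Klf15* (ratio 0.875) were lower in the hippocampus without overlap but did not pass the test. *Klf2*, *Klf4*, *Klf9* and *Klf10* overlapped, with ratios of 0.858, 0.927, 1.09 and 0.881. The value columns of the files are named differently for the regions, so a regional difference and a difference between processing runs cannot be told apart.

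**Figure D2:**
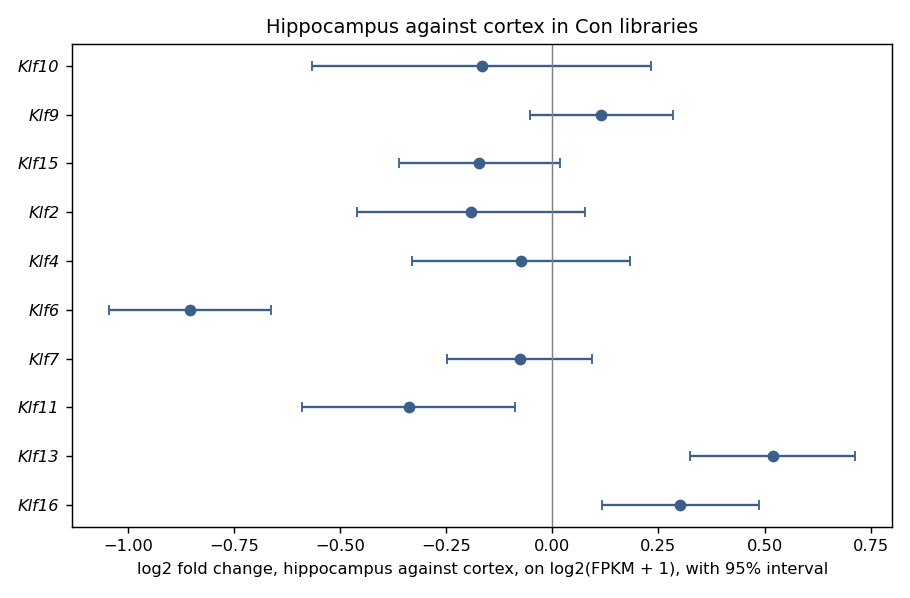
Log2 fold change (horizontal axis) of hippocampus against cortex in Con for the 10 genes, on log2(FPKM + 1), n = 3 per region. Points are estimates from limma and bars their 95% intervals, which lie wholly below 0 for *Klf6* and *Klf11* and wholly above 0 for *Klf13* and *Klf16*.

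The second comparison asked which members differed between IR and Con in the cortex. *Klf10* was 7.48, 8.59 and 11.3 FPKM in Con and 13.8, 14.2 and 15.4 FPKM in IR. All IR libraries were above all Con libraries, and the Con libraries were the more scattered. The mean went from 9.13 ± 1.98 to 14.4 ± 0.858 FPKM, a ratio of 1.58. The log2 fold change was 0.62 ± 0.12 (95% interval 0.36 to 0.89, unadjusted p = 0.00047), and the adjusted p of 0.0579 from limma was just over the threshold. Without Con 3, the highest Con library, the log2 fold change was 0.77 and the adjusted p 0.0127 from limma. Without any other single library it did not pass, with log2 fold changes of 0.51 (without Con 1) to 0.66 and adjusted p from limma of up to 0.182 (without IR 1). With all libraries and at least 1 FPKM required in each, the adjusted p was 0.0462 from limma.

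*Klf4*, the lowest member in Con, had the largest ratio in the cortex. It was 1.79, 1.64 and 1.89 FPKM in Con and 2.76, 3.40 and 3.78 FPKM in IR. The groups did not overlap, and the ratio was 1.87. With a log2 fold change of 0.63 ± 0.11 (95% interval 0.40 to 0.87, adjusted p = 0.0353 from limma), *Klf4* rose and was the only member to pass the adjusted test. The call was lost on leaving out any of the 6 cortex libraries in turn, with adjusted p from limma between 0.0520 (without IR 1) and 0.123 (without IR 2), while the log2 fold change stayed between 0.55 and 0.73.

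*Klf2*, the other endothelial factor, was 5.24, 4.91 and 5.77 FPKM in Con and 6.44, 9.67 and 9.72 FPKM in IR. IR 1 lay near the Con libraries and the other 2 IR libraries well above them. The ratio was 1.62 and the log2 fold change 0.59 ± 0.13 (95% interval 0.29 to 0.89), which did not pass the adjusted test (adjusted p = 0.0933 from limma). Without IR 1, its lowest IR library, the log2 fold change was 0.76 and the adjusted p 0.0268 from limma. Without any other single library it did not pass, with log2 fold changes down to 0.50 (without IR 3) and adjusted p from limma of up to 0.248 (without IR 2).

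These are bulk libraries, in which a change in the share of a cell type and a change in RNA per cell cannot be told apart. In cortex, the summed FPKM of 14 endothelial markers was 142 to 165 in Con and 160 to 182 in IR. In the hippocampus it was 123 to 136 in Con and 140 to 148 in IR, without overlap. Of the 14 markers, 8 in the cortex and 9 in the hippocampus were higher in IR, and 0 passed the adjusted test from limma in either region, with 5 and 2 at an unadjusted p under 0.05, all of them higher, against 14.1% and 13.9% of all genes. Without hippocampus Con 3, 1 of them, *Cldn5*, passed the adjusted test from limma in the hippocampus. *Cldn5*, which encodes a tight junction protein of brain endothelium, had log2 fold changes of 0.46 and 0.45 (adjusted p = 0.121 and 0.218 from limma), and *Pecam1* of 0.12 and 0.10. *Tek*, an angiopoietin receptor, had -0.05 and -0.19. *Cldn5* carried much of the difference in the sums. The cortex sums overlapped with it included, and without it, an alternative chosen after seeing the data, the hippocampus sums overlapped too. Taking out a marker that was higher in IR lessens the difference by construction. Over the other 13 markers the sums were 121 to 136 in Con and 128 to 144 in IR in cortex. In hippocampus they were 103 to 117 in Con and 113 to 117 in IR. None of the 14 was listed at 0 throughout a group. The part of endothelial content in the *Klf2* and *Klf4* values was not tested.

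The hormone-responsive members moved little. *Klf9* was 51.6, 49.1 and 53.7 FPKM in Con and 55.0, 55.0 and 54.2 FPKM in IR in the cortex. The groups did not overlap, but the gap between them was small beside the level, and the ratio of means was 1.06 (log2 fold change 0.09 ± 0.05, adjusted p = 0.490 from limma). *Klf15*, a regulator of amino acid and glucose metabolism, was 9.29, 10.8 and 10.6 FPKM in Con and 7.46, 9.89 and 10.01 FPKM in IR. Its groups overlapped, with a ratio of 0.891 and a log2 fold change of -0.16 (95% interval -0.40 to 0.08, adjusted p = 0.550 from limma).

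Among the remaining members, 3 were lower in every cortex IR library than in any Con library. *Klf11* was 2.97, 2.55 and 2.96 FPKM in Con and 2.03, 1.97 and 2.09 FPKM in IR, a ratio of 0.717 (log2 fold change -0.34 ± 0.09, adjusted p = 0.138 from limma). *Klf6* was 15.8, 14.2 and 13.8 FPKM in Con and 12.9, 11.9 and 11.2 FPKM in IR, a ratio of 0.823 (log2 fold change -0.26 ± 0.07, adjusted p = 0.162 from limma). *Klf16* had a ratio of 0.897 (log2 fold change -0.15 ± 0.06, adjusted p = 0.328 from limma). None of these 3 passed the adjusted test. *Klf7*, known from axon growth, and *Klf13* overlapped, with ratios of 0.963 and 1.07.

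In all, 1 of 10 members passed the adjusted test in the cortex, against 0.725% of the 14065 genes tested. At an unadjusted p under 0.05 there were 6 of 10, against 14.1%, and 7 of 10 did not overlap, against 20.3%. Of these 7, 4 were higher in IR, against 11.2% of all genes, and 3 lower, against 9.09%. Earlier results of these data were known when the 10 members were picked. Their shares, in every comparison here, are therefore not those of a neutral sample of the family. Among the 10 other *Klf* and *Sp* genes tested in cortex, 0 reached such a p and 0 were free of overlap. The members did not move one way. The median log2 fold change of the 10 was 0.02, against 0.00 for all genes tested. In the order of levels, *Klf10* lay below *Klf6* in Con and above it in IR, without overlap in either group, and *Klf4* lay below *Klf11* in Con and above it in IR, also without overlap.

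The third comparison was IR with Con in the hippocampus. *Klf10* was 6.23, 7.91 and 10.003 FPKM in Con and 8.997, 9.12 and 12.1 FPKM in IR. The mean was higher in IR by a ratio of 1.25, but Con 3 lay above 2 of the IR libraries. The log2 fold change was 0.30 ± 0.16 (95% interval -0.08 to 0.68, adjusted p = 0.428 from limma), and over the libraries left out in turn it ran from 0.15 to 0.45.

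*Klf11* was the member with the clearest difference in the hippocampus. It was 2.35, 2.05 and 1.71 FPKM in Con and 1.08, 1.48 and 1.59 FPKM in IR. The groups did not overlap, although IR 3 came close to Con 3. The ratio was 0.679 and the log2 fold change -0.35 ± 0.13 (unadjusted p = 0.0231, adjusted p = 0.316 from limma), a size near that in the cortex. Summed over 10 microglia markers, FPKM was 192 to 224 in Con and 154 to 170 in IR in the hippocampus, and in cortex it was 191 to 207 in Con and 158 to 196 in IR, with overlap. Their part in the *Klf11* values was not tested.

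*Klf2* (ratio 1.07) and *Klf4* (ratio 1.12) overlapped in the hippocampus. *Klf2* was 3.63, 5.03 and 5.004 FPKM in Con and 4.48, 4.47 and 5.75 FPKM in IR. *Klf4* was 1.88, 1.30 and 1.74 FPKM in Con and 1.68, 2.06 and 1.78 FPKM in IR. The 95% intervals of the log2 fold change were -0.22 to 0.40 for *Klf2* and -0.16 to 0.38 for *Klf4*. In the cortex they were 0.29 to 0.89 and 0.40 to 0.87. A difference between the regions was tested as the interaction, in which 0 of the 10 members passed the adjusted test from limma.

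*Klf9* was 53.3, 58.3 and 56.0 FPKM in Con and 48.3, 50.8 and 55.1 FPKM in IR in the hippocampus, a ratio of 0.920 with overlap. *Klf15* was 9.20, 8.51 and 9.16 FPKM in Con and 7.36, 7.70 and 9.28 FPKM in IR, a ratio of 0.906 with overlap. *Klf7* was slightly higher in IR without overlap (ratio 1.12, log2 fold change 0.14, adjusted p = 0.438 from limma). *Klf6*, *Klf13* and *Klf16* overlapped, with ratios of 0.903, 1.02 and 0.904.

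No member passed the adjusted test in the hippocampus with limma (0 of 10, against 0.0285% of the 14043 genes tested). At an unadjusted p under 0.05 there was 1 of 10, against 13.9%, and 2 of 10 did not overlap, against 19.8%. The median log2 fold change of the 10 was -0.05, against -0.01 for all genes tested. These shares were near those of all genes. The counts over all genes in the hippocampus rested on Con 3. Without that library 880 of 13909 genes passed the adjusted test from limma, in place of 4, and still 0 of the 10 members, with 2 members at an unadjusted p under 0.05. These were *Klf10* (0.45, adjusted p = 0.108 from limma) and *Klf11* (-0.43, adjusted p = 0.0941 from limma).

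**Figure D3:**
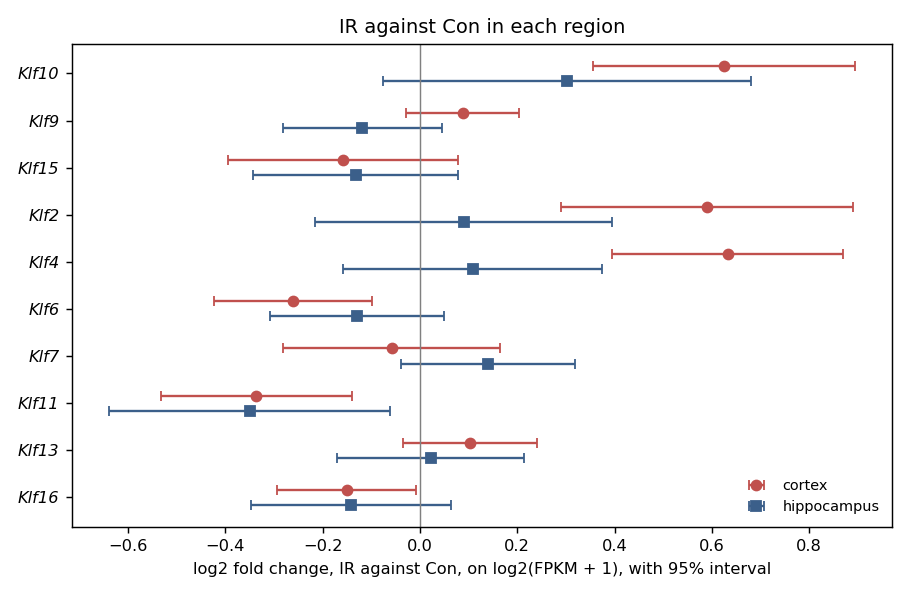
Log2 fold change (horizontal axis) of IR against Con for each gene in the cortex (circles) and the hippocampus (squares), on log2(FPKM + 1), n = 3 per group. Bars are 95% intervals from limma. *Klf10*, *Klf2* and *Klf4* lie near 0.6 in cortex and between 0.09 and 0.30 in hippocampus, and *Klf11* lies near -0.34 in both.

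To set *Klf10* against the other members, its level was divided by theirs within each library, as log2((*Klf10* + 1)/(other + 1)) of FPKM. Against *Klf9*, the log2 ratio in the cortex was -2.39 ± 0.242 in Con and -1.85 ± 0.0905 in IR, without overlap and 0.54 higher in IR. Against *Klf15*, it went from -0.16 ± 0.217 to 0.62 ± 0.167, also without overlap and 0.78 higher. *Klf10* was thus below *Klf15* on average in Con and above it in every cortex IR library.

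The hippocampus gave the same order. The log2 ratio of *Klf10* to *Klf9* was 0.42 higher in IR and that to *Klf15* was 0.43 higher, both without overlap. For each of these 4 differences the exact permutation test (two-sided, 3 against 3) gave p = 0.1, the smallest that this design allows, and 0.2 after Benjamini-Hochberg adjustment over the 8 ratios examined. The hippocampal level of *Klf10* by itself overlapped between Con and IR, whereas these ratios did not. For *Klf9* the gap between Con 3 and IR 2 was small beside the SDs of 0.274 in Con and 0.138 in IR. *Klf9* and *Klf15* were themselves lower in IR there (log2 fold changes -0.12 and -0.13), which adds to both differences. With a library left out these ran from 0.30 to 0.57 for *Klf9* and from 0.26 to 0.57 for *Klf15*.

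Against the endothelial factors the groups overlapped. In the cortex the log2 ratio differed by 0.03 for *Klf2* (p = 0.9 from the exact permutation test) and by -0.01 for *Klf4* (p = 1 from the exact permutation test). The pseudocount of 1 weighs on *Klf4*, whose FPKM is low. With a pseudocount of 0.1 the difference for *Klf4* was -0.18 (exact permutation p = 0.3), toward a lower ratio in IR, and that for *Klf2* was 0.01 (exact permutation p = 1). In the hippocampus it was 0.21 higher in IR for *Klf2* (exact permutation p = 0.2) and 0.19 higher for *Klf4* (exact permutation p = 0.6). With a pseudocount of 0.1 these were 0.23, then without overlap (exact permutation p = 0.1), and 0.17 (exact permutation p = 0.7). The differences for *Klf2* and *Klf4* in the cortex and for *Klf4* in the hippocampus changed sign with single libraries left out.

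**Figure D4:**
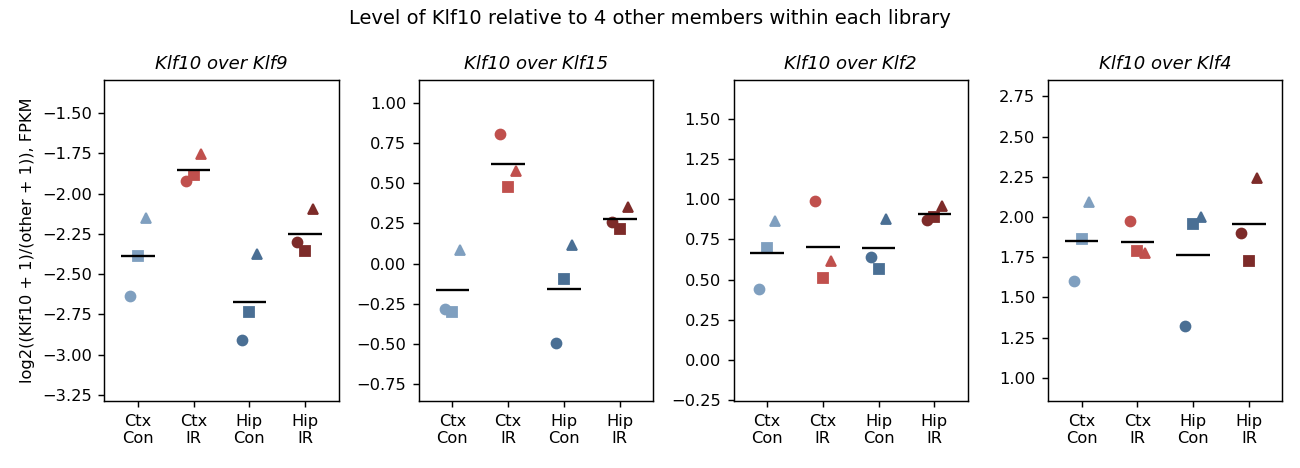
Log2 ratio of *Klf10* to *Klf9*, *Klf15*, *Klf2* and *Klf4* within each library (vertical axes, each spanning the same range of 2 log2 units), with circles, squares and triangles for libraries 1, 2 and 3 and bars for group means. The IR libraries lie above the Con libraries of the same region for *Klf9* and *Klf15*, and overlap with them for *Klf2* and *Klf4*.

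Whether the change differed between regions was tested as the interaction over the 12 libraries. Given as hippocampus change minus cortex change, it was -0.52 ± 0.16 for *Klf4* (unadjusted p = 0.00546), -0.50 ± 0.21 for *Klf2* (unadjusted p = 0.0318) and -0.21 ± 0.09 for *Klf9* (unadjusted p = 0.0325). None of the members passed the adjusted test (0 of 10, against 0.0823% of the 14577 genes tested; adjusted p = 0.309, 0.444 and 0.447 from limma), and 3 of 10 had an unadjusted p under 0.05, against 10.3%. For *Klf10* the interaction was -0.32 (95% interval -0.82 to 0.17, adjusted p = 0.633 from limma), so that a difference between its changes in the regions was not shown. For *Klf11* it was -0.01 (95% interval -0.34 to 0.31). Without hippocampus Con 3, 480 of 14528 genes passed the adjusted test of the interaction from limma, in place of 12, and 0 of the 10 members. The regional contrast in Con uses the same Con libraries as the contrasts of IR with Con.

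The change averaged over the regions was fitted as well. It was chosen because *Klf11* had been seen to be lower in both regions, so it restates those values in 1 number and is no further support for them. The averaged log2 difference of IR from Con was -0.34 ± 0.07 for *Klf11* (adjusted p = 0.0369 from limma). For *Klf4* it was 0.37 ± 0.08 (adjusted p = 0.0346 from limma), a mean of 0.63 in cortex and 0.11 with overlapping groups in hippocampus. *Klf10* differed by 0.46 ± 0.11 (95% interval 0.21 to 0.71, adjusted p = 0.0585 from limma) and *Klf6* by -0.20 ± 0.05 (adjusted p = 0.0771 from limma). *Klf4* and *Klf11* are 2 of the 10 members, against 1.93% of all genes in this fit. Leaving out single libraries kept the *Klf11* value between -0.38 and -0.30 but raised its adjusted p from limma above the threshold in 11 of 12 cases, up to 0.0978 (without cortex IR 1). For *Klf4* this held in 10 of 12 cases, up to 0.0798 (without cortex IR 3). *Klf10* passed without cortex Con 3 (adjusted p = 0.0489 from limma) or without hippocampus Con 3 (adjusted p = 0.0124 from limma). In the other 10 cases it did not, with adjusted p from limma of up to 0.124 (without cortex IR 3), and over all 12 its log2 fold change ran from 0.39 to 0.54. Without hippocampus Con 3, 1348 of all 14528 genes passed in this fit, in place of 282, and 3 of the 10 members.

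The rest of the family was followed with 16 other *Klf* and *Sp* genes, of which 10 passed the filter on low values in the cortex and 9 in the hippocampus. In both regions 0 passed the adjusted test from limma and 0 had an unadjusted p under 0.05, with median log2 fold changes of 0.01 and -0.00. Between the regions in Con, 5 of 9 passed the adjusted test, against 36.3% of all genes. *Klf3*, a repressor that recruits CtBP, was higher in the hippocampus (5.12 ± 0.836 FPKM in cortex and 12.8 ± 0.434 FPKM in hippocampus, adjusted p = 2.90e-05 from limma), and *Klf5* was lower (5.08 ± 1.15 and 1.70 ± 0.483 FPKM, adjusted p = 0.000597 from limma).

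Of 7 corepressor genes that members bind (*Sin3a*, *Sin3b*, *Sap30*, *Hdac1*, *Hdac2*, *Ctbp1* and *Ctbp2*), 0 passed the adjusted test from limma in either region. *Hdac1*, a histone deacetylase, had the lowest unadjusted p of these in cortex (0.00176, log2 fold change -0.24, adjusted p = 0.103 from limma), and its log2 fold change in hippocampus was 0.03.

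The TGF-beta pathway, of which *Klf10* and *Klf11* are early genes, was followed with 12 tested genes. Of these, 0 passed the adjusted test from limma in either region, and at an unadjusted p under 0.05 the cortex had 3 that were higher and the hippocampus 3 that were lower, against 14.1% and 13.9% of all genes in either direction. *Smad7*, the feedback inhibitor, had log2 fold changes of 0.18 in cortex (adjusted p = 0.335 from limma) and -0.38 in hippocampus (adjusted p = 0.230 from limma). The ligand *Tgfb1* had -0.11 and -0.34, and *Tgfb3* had 0.24 and 0.22. *Klf10* and *Klf11* thus lay on opposite sides of 0 in both regions, beside a list with medians of 0.00 in cortex and -0.07 in hippocampus.

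For the hormones behind *Klf9* and *Klf15*, 13 glucocorticoid-induced genes were followed. Of these, 10 had a log2 fold change above 0 in cortex and 8 in hippocampus, with medians of 0.13 and 0.04. Higher in IR without overlap were 4 in cortex, against 11.2% of all genes, and 1 in hippocampus, against 10.5%. In the cortex 1 rose and 1 fell at an adjusted p under 0.05, against 0.725% of all genes in either direction. The riser was *Cdkn1a* (log2 fold change 1.16, adjusted p = 0.000947 from limma), which is also a p53 target and was the 1 gene of the list that rose in the hippocampus (1.20, adjusted p = 0.00175 from limma). That hippocampal call was lost without any 1 of the 3 IR libraries (adjusted p from limma of 0.0534 to 0.0677), and without hippocampus Con 3 the metallothionein *Mt1* was called beside it. The gene that fell was the metallothionein *Mt2* (-0.31, adjusted p = 0.0218 from limma), and it was still called on leaving out cortex Con 2 but none of the other 5 cortex libraries (adjusted p from limma of up to 0.139, without IR 1). *Fkbp5*, a classic glucocorticoid target, had log2 fold changes of -0.06 and -0.03, *Per1*, also a clock gene, of 0.47 (adjusted p = 0.216 from limma) and 0.04, and *Tsc22d3* of 0.14 and -0.34. Of 8 receptors of both hormones and thyroid hormone targets, 7 had a log2 fold change above 0 in cortex and 7 one below 0 in hippocampus, with medians of 0.09 and -0.06. In cortex *Dio2*, the enzyme that activates thyroid hormone, rose (0.40, adjusted p = 0.0336 from limma), and the call remained on leaving out cortex Con 3 but none of the other 5 cortex libraries (adjusted p from limma of up to 0.163, without IR 1). Its hippocampal log2 fold change was -0.00. The glucocorticoid receptor gene *Nr3c1* had log2 fold changes of 0.13 and -0.07 and did not pass the test.

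The immediate early genes, which neurons induce on activity, are given because *Klf10*, *Klf2* and *Klf4* are also known as early response genes. In cortex, all 14 had a log2 fold change above 0, with a median of 0.91, and 12 of them did not overlap (20.3% of all genes). For several, the lowest Con library lay far below the others, which raises the size of the change. The Con values were 4.58, 14.4 and 14.8 FPKM for *Fos* and 26.4, 73.2 and 86.6 FPKM for *Arc*, but 34.2 to 37.8 FPKM for *Egr3*. *Btg2* had a lower mean FPKM in IR (8.42) than in Con (8.76). *Egr3* (0.97, adjusted p = 0.000185 from limma) and *Fosb* (0.77, adjusted p = 0.0303 from limma) rose, and 9 had an unadjusted p under 0.05, against 14.1% of all genes. The call of *Fosb* was lost on leaving out any of the 6 cortex libraries in turn (adjusted p from limma of up to 0.0891, without IR 1), that of *Egr3* was not, and without cortex Con 1 the count was 4. In the hippocampus 13 were above 0 with a median of 0.13, and 0 passed the adjusted test from limma. There 2 of 14 had an unadjusted p under 0.05, a share near the 13.9% of all genes. *Klf10*, *Klf2* and *Klf4*, at 0.59 to 0.63 in cortex and 0.09 to 0.30 in hippocampus, also had their larger estimates in the cortex, and the tests of that difference are those of the interaction. The part of neuronal activity in these values was not tested.

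**Figure D5:**
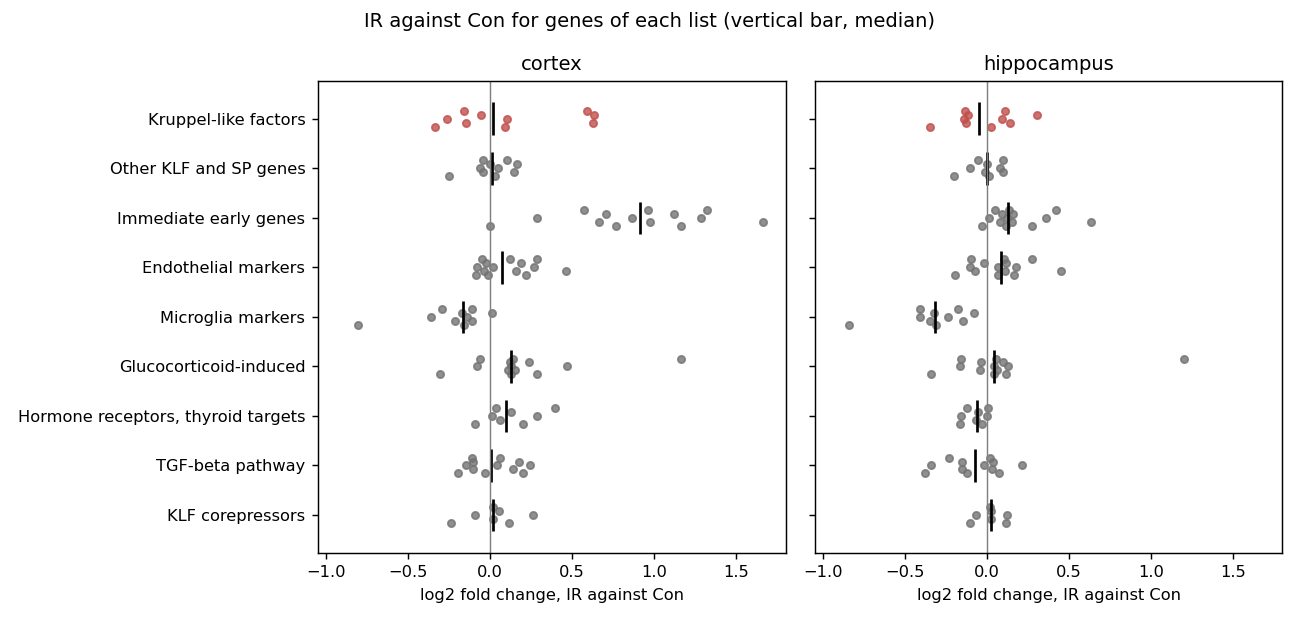
Log2 fold change of IR against Con (horizontal axes, on log2(FPKM + 1)) in the cortex and the hippocampus for the 10 Krüppel-like factors (red) and the tested genes of each list (gray), with 1 point per gene and a vertical bar at the median. The immediate early genes have a median of 0.91 in cortex and 0.13 in hippocampus, and the other KLF and SP genes lie around 0 in both.

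The genes most like *Klf10*, *Klf2*, *Klf4*, *Klf9* and *Klf15* across the 12 libraries were named by Pearson's r on log2(FPKM + 1), after the mean of each region was removed, among 13648 genes. This is a description over libraries that fall into groups by tissue, treatment and processing. Only the region mean was removed, so differences between IR and Con remain in r. Genes that differ between IR and Con can have a high r for that reason alone. The values of r are thus no separate support for the changes with IR. For *Klf10* they were *Tiparp* (r = 0.944), *Irs2* (0.941), *Kdm2a* (0.940), *Gpr3* (0.933) and *Trib2* (0.929). For *Klf2* they were *Sertad1* (0.943), *Hivep3*, *Map3k3*, *Kdm2a* and *Fbrsl1*, so that *Kdm2a* was in both lists. For *Klf4* the highest was *Mybbp1a* (0.879), for *Klf9* it was *Magi1* (0.926) and for *Klf15* it was *Hdac9* (0.948). Among pairs of members, r was 0.84 for *Klf2* with *Klf10*, -0.83 for *Klf2* with *Klf6* and -0.82 for *Klf6* with *Klf10*.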

How the data were processed

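RNA from the cortex and the hippocampus was sequenced with paired ends after directional library preparation. The methods name poly(A) selection, whereas the labels name total RNA. The authors trimmed reads with FASTX_Trimmer and BBMap, aligned them with TopHat (mm10 per the submitters' processing notes), estimated FPKM with Cufflinks and applied a geometric normalization with edgeR, and the deposited values used here are these FPKM. The gene annotation is not given in the sources used here. The depth in reads is unknown.

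Tests covered genes that reached 0.5 FPKM in 3 or more libraries of a comparison, and were run on log2(FPKM + 1) with limma 3.58.1 in R 4.3.3 (variance trend, robust prior), with Benjamini-Hochberg adjustment over all genes tested and a threshold of 0.05. All 10 members passed this filter in each comparison. The regions were fitted separately and the interaction over all 12 libraries. The steps were tested on simulated data. Ratios within libraries were compared by exact permutation tests with scipy 1.17.1 in Python 3.11.15. All members, list genes with an adjusted p under 0.05 and the defining genes a sentence needs were eligible to be named. So were the 5 genes most like each of *Klf10*, *Klf9*, *Klf15*, *Klf2* and *Klf4*. *Hdac1*, *Smad7*, *Tgfb1*, *Tgfb3*, *Tek*, *Per1*, *Tsc22d3*, *Mapk7*, *Mt1*, *Gpt*, *Fos*, *Arc* and *Btg2* were chosen after their values were seen. The members and lists were chosen with earlier results of these data known. Alternatives were no filter, a minimum of 1 FPKM throughout, a pseudocount of 0.1, quantile normalization, limma without trend or robust prior, all 12 libraries in 1 fit, the library number as a block, and each library left out. Promoter windows came from RefSeq on GRCm38.p6 and gene positions from GENCODE M21 on GRCm38. The behavioral tests and qRT-PCR were not analysed here.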

Additional observations from a re-analysis of the deposited data

Results flagged for a closer look

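The interaction of irradiation and region had an unadjusted p under 0.05 in limma for 3 of the 10 members, against 10.3% of the 14577 genes tested, and 0 of 10 passed the adjusted test, against 0.0823%. Hippocampus change minus cortex change was -0.50 for *Klf2* (unadjusted p = 0.0318, adjusted p = 0.444 from limma), -0.52 for *Klf4* (unadjusted p = 0.00546, adjusted p = 0.309) and -0.21 for *Klf9* (unadjusted p = 0.0325, adjusted p = 0.447). *Klf2* and *Klf4* were higher in every IR library than in any Con library in the cortex only, with overlap in the hippocampus. For *Klf9* the estimates had opposite signs, 0.09 in cortex and -0.12 in hippocampus, and neither passed the test. The reason for these values was not tested.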

How the results depend on the processing

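The count of members with an adjusted p under 0.05 in the cortex was 1, and it became 0 with no filter or without the trend and robust prior, 2 with at least 1 FPKM in every library, and 0 to 1 with a library left out. In the regional contrast the count of 4 became 2 to 4 with a library left out, and *Klf11* was no longer called with no filter (adjusted p = 0.0548) or quantile normalization (0.0592), both from limma. The average over the regions gave 2 calls, but 0 with no filter, 3 with at least 1 FPKM in every library, and 0 to 3 with a library left out, and its *Klf9* value of -0.015 became 0.011 with quantile normalization and ran from -0.040 to 0.0060 with a library left out. Same-numbered libraries did not deviate together throughout, with r from -0.36 to 0.08 between Con and IR. Between cortex and hippocampus libraries of the same number, r was 0.026, -0.028 and 0.15 in Con and -0.13, -0.021 and 0.13 in IR. Whether such libraries came from the same mouse is not given, and these values cannot settle it. The main fits across the regions treated them as independent. With the number as a replicate block the cortex log2 fold changes were the same by construction, with an adjusted p of 0.0575 for *Klf4* and 0.0395 for *Klf10* from limma, so that the count stayed at 1 with another gene. With a library left out, unadjusted counts ran from 0 to 3 in the hippocampus and from 1 to 4 for the interaction. Log2 fold changes that changed sign in this way ran from -0.12 to 0.063 for *Klf7* in the cortex, from -0.037 to 0.15 for *Klf2* and -0.038 to 0.085 for *Klf13* in the hippocampus, from -0.14 to 0.023 for *Klf4* between regions, and from -0.094 to 0.083 for *Klf11*, -0.098 to 0.092 for *Klf15* and -0.065 to 0.066 for *Klf16* in the interaction. The log2 ratio of *Klf10* ran from -0.11 to 0.13 to *Klf2* and from -0.13 to 0.11 to *Klf4* in the cortex, and from -0.025 to 0.31 to *Klf4* in the hippocampus. Causes were not tested.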

Other observations

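Known targets of 3 members were followed as well. Of 9 tested genes of a list of KLF2 and KLF4 endothelial targets and the kinases and MEF2 factors upstream, 0 passed the adjusted test from limma in either region, with 2 in cortex, both lower, and 1 in hippocampus, higher, at an unadjusted p under 0.05, against 14.1% and 13.9% of all genes. For *Nos3*, the endothelial nitric oxide synthase that KLF2 is known to induce, the log2 fold change was 0.21 in cortex (adjusted p = 0.488 from limma) and 0.00 in hippocampus. *Thbd*, thrombomodulin, had 0.01 in both, and *Mapk7*, which encodes ERK5, had -0.20 in the cortex (adjusted p = 0.222 from limma) and 0.14 in the hippocampus.

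Of 5 tested metabolic targets of KLF15, all 5 had a log2 fold change above 0 in both regions, with medians of 0.11 and 0.14, and 0 passed the adjusted test from limma, with 1 and 2 at an unadjusted p under 0.05, both counts of higher genes, against 14.1% and 13.9% of all genes in either direction. *Klf15* itself had log2 fold changes of -0.16 and -0.13. *Gpt*, alanine aminotransferase, had 0.24 and 0.14, and *Bcat2*, the mitochondrial branched-chain aminotransferase, had 0.11 and 0.28 (adjusted p = 0.3004 from limma for the latter).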
